A study of Mus musculus with 8 samples.

Results

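The 94 genes described here encode enzymes that modify foreign and endogenous small molecules: cytochromes P450, glutathione transferases, aldehyde dehydrogenases, aldo-keto reductases, sulfotransferases and UDP-glucuronosyltransferases. They were chosen by a gene symbol pattern from the 17441 genes of the authors' deposited table, with earlier results of these data known. The symbol pattern matched 98 genes, and 4 of them (Cyp1a1, Cyp1b1, Aldh3a1 and Aldh1a2) were left out by the rule. The 94 comprised 29 P450 genes of the Cyp2, Cyp3 and Cyp4 groups, 21 soluble glutathione transferases (Gst), 3 microsomal ones (Mgst), 16 aldehyde dehydrogenases (Aldh), 11 aldo-keto reductases (Akr1), 6 sulfotransferases (Sult) and 8 glucuronosyltransferases (Ugt).

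The series compared primary mouse embryonic fibroblasts carrying a targeted deletion of Cbx2 (genotype Cbx2-/-) with fibroblasts of wild-type littermates. Cbx2 encodes a polycomb protein that binds methylated histones and helps to keep developmental genes silent. All cells were taken at embryonic day 18 and used at passage 2, and 2 RNA-seq libraries per genotype were made, each from 200000 cells and of about 4.62 Gb. Chromatin accessibility was also profiled, and those libraries are not analysed here. The sample labels do not give a strain, nor whether both libraries of one genotype stem from different embryos, so p-values measure the spread between these libraries, which may be technical. The authors' deposited table gives each gene 1 normalised read signal per genotype, a log2 fold change of Cbx2-/- over wild type and DESeq2 p-values. The genotype values carry the same moderated fold change, so where reads are few their ratio is smaller than that of the reads. The values sum to 18910077 in Cbx2-/- and 19428299 in wild type, and values below are on this scale unless reads are named. Cbx2 itself had a value of 29.0 in Cbx2-/- cells, against 346.8 in wild-type cells, in the authors' deposited table (log2 fold change -3.58, DESeq2 adjusted p = 2.55e-44). These are bulk samples, so fewer cells of a type and less RNA per cell cannot be told apart.

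Enzymes of these families are usually sorted into successive steps. P450s, aldehyde dehydrogenases and aldo-keto reductases first oxidise or reduce a compound, and transferases then attach glutathione, sulfate or glucuronic acid, which makes it soluble and ready for export. The liver is the main site of many of them, especially the Cyp2, Cyp3, Cyp4a, Sult and Ugt2 genes, while several glutathione transferases, aldo-keto reductases and aldehyde dehydrogenases also serve ordinary metabolism and defence against oxidised lipids in most cells. Many of the transferase and reductase genes are known targets of the transcription factor NRF2, the product of Nfe2l2.

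Of the 94 genes, 7 rose and 1 fell in Cbx2-/- fibroblasts at an adjusted p under 0.05 in the authors' deposited table (DESeq2). That is 7.45% higher and 1.06% lower, against 3.48% higher and 4.3% lower (7.78% in either direction) of all 17441 genes. The genes that rose were Akr1c18, Gsta1, Gsta4, Gsto1, Gstm2, Aldh4a1 and Akr1b3, and the gene that fell was Mgst1. Glutathione transferases supplied 4 of the 7 rises, and no P450, sulfotransferase or glucuronosyltransferase among the 94 was called. The remaining 86 genes did not pass the threshold, and the median log2 fold change over all 94 was 0.056, against 0.0036 over all genes of the authors' deposited table. The closest gene outside the threshold was Aldh1l2 (adjusted p = 0.117), and the closest inside was Akr1b3 (adjusted p = 0.0472), by the authors' DESeq2 comparison.

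**Figure D1:**
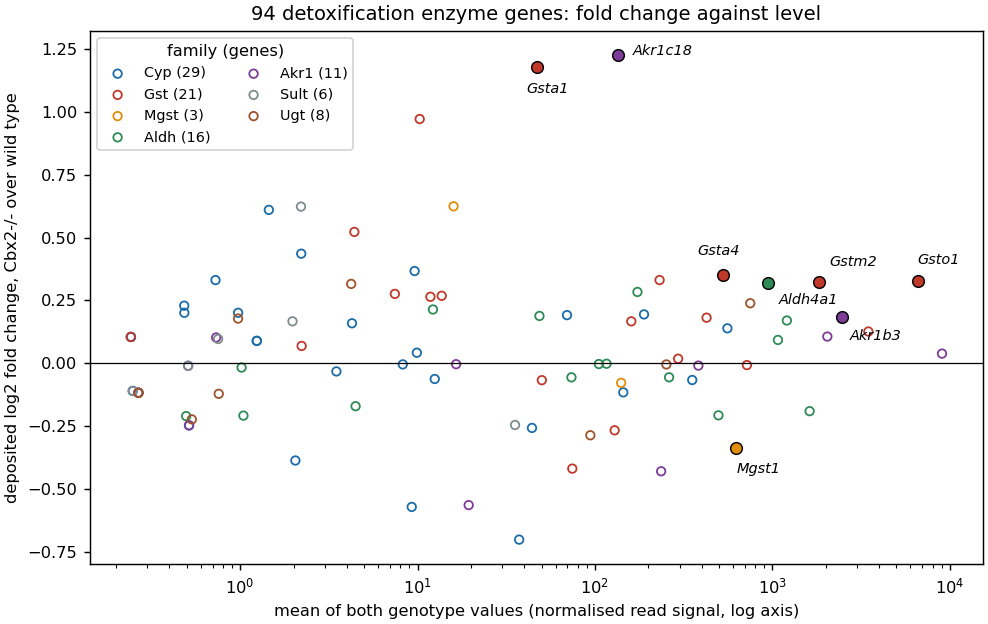
Deposited log2 fold change of Cbx2-/- over wild type (vertical axis) against the mean of both genotype values (horizontal, log axis) for the 94 genes, coloured by family; filled points passed an adjusted p of 0.05. The 2 genes with filled points above a log2 fold change of 1 are Akr1c18 and Gsta1, and the other called genes lie between -0.33 and 0.35.

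Of the 94 genes, 38 had a mean value of 50 or more, and 38 had a mean under 5. Among the 38 genes with a mean of 50 or more, 6 rose and 1 fell (15.8% and 2.63%), against 4.74% higher and 6.36% lower of the 11315 genes at that level (11.1% in either direction). Of the 56 genes with a mean under 50, 1 was called, Gsta1, against 1.65% of the 6126 genes at that level, 1.16% higher and 0.49% lower. The median log2 fold change of the 38 was 0.029 in the authors' deposited table, against -0.0071 over the 11315. Aldo-keto reductases and glutathione transferases stood highest. Per kilobase of transcript, Akr1a1, an aldehyde reductase of general metabolism, ranked first with 6388 in Cbx2-/- and 6218 in wild-type cells. Gsto1 followed with 6153 in Cbx2-/- and 4900 in wild-type cells, and Gstp1, the pi-class transferase, with 4878 in Cbx2-/- and 4468 in wild-type cells. The order of these 3 genes was the same in both genotypes.

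The families differed widely in level. Among the 29 P450s kept by the rule the highest, Cyp4f16, reached 267 per kilobase in Cbx2-/- cells and 242 in wild-type cells. Cyp1b1, a P450 that the rule left out, stood higher, at 810 in Cbx2-/- cells and 641 in wild-type cells. The highest sulfotransferase, Sult4a1, reached 13.3 in Cbx2-/- cells and 15.7 in wild-type cells. Of the 29 P450 genes 24 had a mean under 50, as did all 6 sulfotransferases and 5 of the 8 glucuronosyltransferases. Of 8 hepatocyte markers looked up, 3 had a row and all 3 were near 0, with Afp at 1 and 3 reads in the Cbx2-/- libraries and 0 and 0 in the wild-type libraries and Alb at 0 and 0 reads in the Cbx2-/- libraries and 1 and 0 in the wild-type libraries. The fibroblast marker list was abundant and summed to 507372 in Cbx2-/- cells and 622179 in wild-type cells. Col1a1, which was not called, made 44.9% of that sum in Cbx2-/- and 42.5% in wild type. Of the 10 genes listed 1 was higher (Thy1, log2 fold change 1.27) and 8 lower in the authors' deposited table. All 10 had a mean of 50 or more, where 4.74% of all genes were higher and 6.36% lower.

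**Figure D2:**
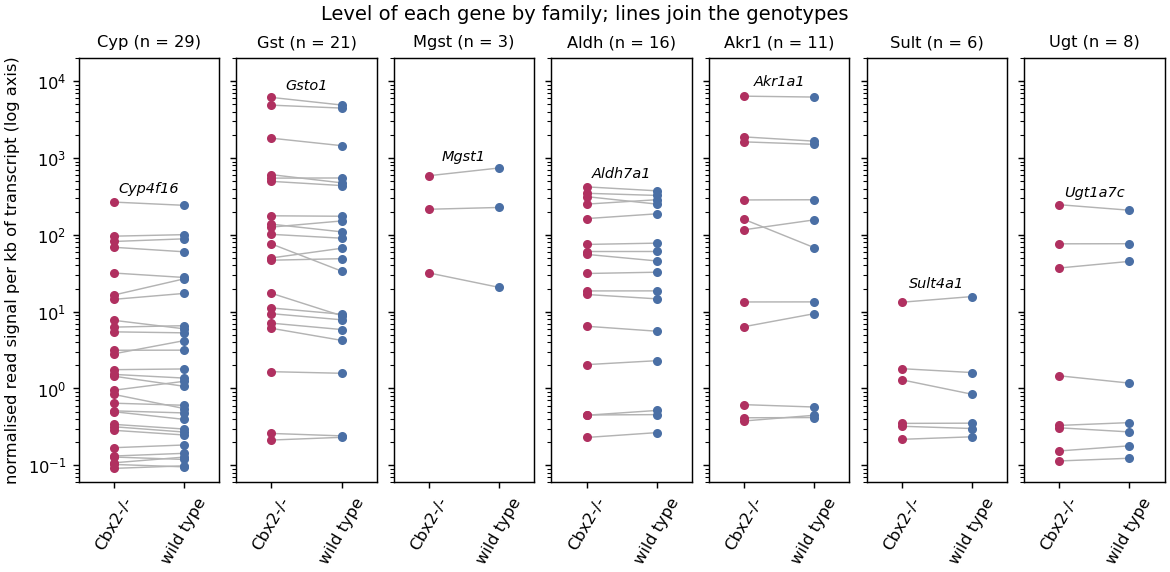
Normalised read signal per kilobase of transcript (log axis) of every gene in each of the 7 families, in Cbx2-/- (left) and wild-type cells (right); each point is 1 gene at its deposited genotype value and lines join the same gene. The Akr1 and Gst panels reach highest (Akr1a1 at 6388 and Gsto1 at 6153 in Cbx2-/-), whereas the Cyp panel reaches 267 and the Sult panel 15.7.

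Glutathione transferases join glutathione to reactive electrophiles. Of the 21 soluble members 4 rose and none fell in the authors' deposited table, against 3.48% higher and 4.3% lower of all genes. Of the 21, 16 had a log2 fold change above 0 (76.2%, against 50.7% of all genes in the authors' deposited table). The 16 include genes with very few reads, such as Gsta3 with 9 and Gstt4 with 1. Among members with a mean of 50 or more, 8 of 12 were above 0, against 5428 of the 11315 genes at that level. The median log2 fold change of the 21 was 0.18. Their signal summed to 15831 in Cbx2-/- cells and 13367 in wild-type cells, a ratio of 1.18. The largest part of that sum was Gsto1, with 46.3% of the family in Cbx2-/- and 43.7% in wild type.

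Gsto1, an omega-class transferase that also reduces dehydroascorbate, had a value of 7334 in Cbx2-/- cells and 5840 in wild-type cells in the authors' deposited table. That rise was 0.33 on the log2 scale (DESeq2 adjusted p = 4.23e-11), and the p-value implies a standard error of 0.046. The omega paralog Gsto2 was far lower, at 63.8 in Cbx2-/- and 85.3 in wild-type cells (log2 fold change -0.42, DESeq2 adjusted p = 0.642). Gstm2, a mu-class enzyme, rose by a log2 fold change of 0.32 with an implied standard error of 0.068, and had a value of 2032 in Cbx2-/- and 1624 in wild-type cells (DESeq2 adjusted p = 6.83e-05). Gsta4, the alpha-class enzyme specialised for aldehydes of lipid peroxidation, stood at 589 in Cbx2-/- and 461 in wild-type cells (log2 fold change 0.35, implied standard error 0.12, DESeq2 adjusted p = 0.0388). These rises of about 1.25-fold to 1.28-fold were several times their standard error in Gsto1 and Gstm2 and about 3 times in Gsta4.

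Gsta1, another alpha-class enzyme, showed the largest fold among the transferases called. It had 78 and 62 whole reads in the Cbx2-/- libraries, against 26 and 26 in the wild-type libraries, and the libraries of the 2 genotypes did not overlap. The reads, recovered from the deposited means, gave a ratio of 2.53 (95% exact counting interval 1.83 to 3.55, counting error only). The log2 fold change was 1.18 in the authors' deposited table (implied standard error 0.35, DESeq2 adjusted p = 0.0149) and 1.31 by limma on recovered reads (standard error 0.22, adjusted p = 0.000486 over 2458 genes). The limma call was lost without either wild-type library (adjusted p = 0.223 and 0.231) and with all 6126 genes with recovered reads in the fit (adjusted p = 0.195). Gsta2, a near-identical relative that could share reads with Gsta1, had 9 and 4 reads in Cbx2-/- and 4 and 1 in wild type, and the summed values of the pair were 70.8 in Cbx2-/- and 32.6 in wild-type cells.

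Mgst1, the microsomal transferase of the endoplasmic reticulum and outer mitochondrial membrane, changed the other way. Its value fell to 555 in Cbx2-/- cells, against 700.0 in wild-type cells, a log2 fold change of -0.33 with an implied standard error of 0.11 (DESeq2 adjusted p = 0.0312) in the authors' deposited table. The other microsomal members, which act on leukotrienes and lipid peroxides, did not pass. Mgst3 had 137 in Cbx2-/- and 144 in wild-type cells, and Mgst2 had 25 and 18 reads in Cbx2-/- and 17 and 5 in wild type. With the columns rescaled to equal totals, the fall of Mgst1 was -0.30 on the log2 scale and no longer passed (adjusted p = 0.0789).

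**Figure D3:**
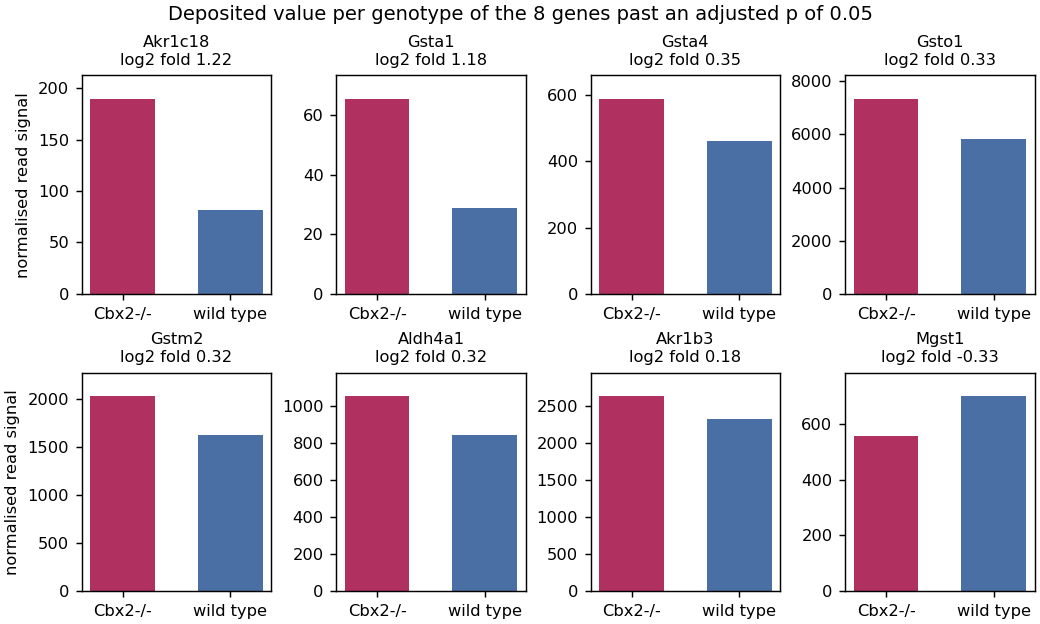
Deposited normalised read signal of the 8 genes past an adjusted p of 0.05, with Cbx2-/- on the left and wild type on the right of each panel; each bar is 1 value per genotype, so no replicate error is shown. Akr1c18 and Gsta1 are more than 2-fold higher in Cbx2-/-, the next 5 panels differ by 1.14-fold to 1.28-fold, and Mgst1 is lower in Cbx2-/-.

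The starts of Gsta1, Gstm2, Gsto1 and Mgst1, called transferases, are shown because these families are known for response elements near their promoters. Each sequence is the 250 bases before the annotated start, 5′ to 3′ on the gene's strand, from the RefSeq promoter table of build GRCm38.p6. Capitals mark a match to TGACNNNGC, the core of the antioxidant response element bound by NRF2, or to GCGTG, the core of the xenobiotic response element bound by the aryl hydrocarbon receptor, on either strand. Gsta1 lies at chr9:78230419-78230668 (+ strand), Gstm2 at chr3:107986421-107986670 (- strand), Gsto1 at chr19:47854723-47854972 (+ strand) and the first of the 2 Mgst1 starts at chr6:138140277-138140526 (+ strand).
Gsta1: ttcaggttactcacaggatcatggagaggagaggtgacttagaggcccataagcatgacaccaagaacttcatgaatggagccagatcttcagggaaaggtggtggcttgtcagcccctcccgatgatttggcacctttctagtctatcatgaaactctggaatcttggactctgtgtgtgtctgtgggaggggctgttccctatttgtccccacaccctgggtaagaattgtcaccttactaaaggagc
Gstm2: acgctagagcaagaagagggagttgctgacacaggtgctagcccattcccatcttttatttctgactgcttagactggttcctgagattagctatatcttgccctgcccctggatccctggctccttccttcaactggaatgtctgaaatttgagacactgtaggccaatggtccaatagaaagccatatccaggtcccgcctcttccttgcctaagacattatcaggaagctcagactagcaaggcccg
Gsto1: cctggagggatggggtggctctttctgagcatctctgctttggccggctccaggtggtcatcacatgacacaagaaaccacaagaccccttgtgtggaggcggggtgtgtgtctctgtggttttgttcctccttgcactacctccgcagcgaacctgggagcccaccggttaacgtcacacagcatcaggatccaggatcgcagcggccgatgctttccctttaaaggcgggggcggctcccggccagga
Mgst1: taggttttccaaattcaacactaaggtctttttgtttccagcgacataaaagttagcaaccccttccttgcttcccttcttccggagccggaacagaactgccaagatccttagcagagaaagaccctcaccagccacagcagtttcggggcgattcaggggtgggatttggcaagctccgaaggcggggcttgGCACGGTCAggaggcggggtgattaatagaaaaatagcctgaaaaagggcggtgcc

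The 3 printed transferase genes that rose had no capitals in this window, and the gene that fell had 1 match, GCACGGTCA on the reverse strand starting 56 bases before the start. Promoters of Akr1c18 and Aldh4a1 were searched too, and those of Gsta4 and Akr1b3 were not. Akr1c18 held neither motif, and Aldh4a1 held GCGTG on the reverse strand at 2 places, 185 and 55 bases before the start. TGACNNNGC occurred in 5.62% of the 89 promoters found for 76 of the 94 genes, against 10.2% of all 32851 promoters and 11.5% of the 17087 of genes in the expression table. GCGTG occurred in 22.5% of the 89, against 28.2% of all promoters and 40.3% of those in the expression table. These matches are descriptions of the letters in 250 bases, and elements further away were not searched.

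The remaining glutathione transferases did not pass the DESeq2 threshold. Gstp1, the most abundant after Gsto1, had 3630 in Cbx2-/- and 3324 in wild-type cells in the authors' deposited table (log2 fold change 0.13, 95% interval 0.011 to 0.24, adjusted p = 0.253). Its near-identical copy Gstp2 had 17 and 15 reads in the Cbx2-/- libraries, against 7 and 3 in the wild-type libraries, which did not overlap. By limma on recovered reads Gstp2 rose by a log2 fold change of 1.60 (standard error 0.49, adjusted p = 0.0386), whereas the authors' DESeq2 adjusted p was 0.405. Reads of Gstp2 could be divided with the far more abundant Gstp1, and the sum of the pair differed by a log2 ratio of 0.13.

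The 7 mu-class genes lie side by side on chromosome 3 from 107895854 to 108045179, and Gstm2 was the single member called. Gstm1 next to it had 717 in Cbx2-/- and 721 in wild-type cells (log2 fold change -0.0066, 95% interval -0.21 to 0.20) in the authors' deposited table. Gstm5 had 453 in Cbx2-/- and 399 in wild-type cells, and Gstm4 170 in Cbx2-/- and 151 in wild-type cells, neither past the threshold. Whether Gstm2 differed from its neighbours was not tested. In the theta class, Gstt3 had 258 in Cbx2-/- and 205 in wild-type cells (DESeq2 adjusted p = 0.363). Gstz1, which isomerises maleylacetoacetate in tyrosine breakdown, had 296 in Cbx2-/- and 292 in wild-type cells, and Gstk1, the kappa-class enzyme, 117 in Cbx2-/- and 141 in wild-type cells, with DESeq2 adjusted p of 0.997 and 0.844.

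Of 14 macrophage markers 9 rose and none fell in the authors' deposited table, against 3.48% higher and 4.3% lower of all genes. The 14 summed to 2012 in Cbx2-/- and 695 in wild-type cells, and Lyz2 made 47.1% of the sum in Cbx2-/- and 21.3% in wild type. Of the 14, 13 had a log2 fold change above 0, but the list was not uniform. Csf1r was not called, with 257 in Cbx2-/- and 245 in wild-type cells. C1qb had 3 and 1 reads in Cbx2-/- and 3 and 8 in wild type. Ptprc, the leukocyte surface antigen, was low at 15.5 in Cbx2-/- and 5.55 in wild-type cells. It had 21 and 16 reads in Cbx2-/- and 3 and 3 in wild type, the same direction as the called markers. It did not pass (log2 fold change 1.48, DESeq2 adjusted p = 0.064). The part of such cells in the change of Gsto1 or of any other gene here was not tested. Lists of other cell types also held called genes, with the same shares of all genes as background. Of 7 endothelial markers 2 rose (Cdh5 and Esam), with sums of 679 in Cbx2-/- and 173 in wild-type cells, while the defining marker Pecam1 had 1 and 3 reads in Cbx2-/- and 2 and 2 in wild type. Of 7 epithelial markers 2 fell, with sums of 269.8 in Cbx2-/- and 557 in wild-type cells, and of 6 adipocyte markers 2 fell, with sums of 1836 in Cbx2-/- and 3270 in wild-type cells; their part in the results was not tested either.

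Aldo-keto reductases reduce aldehydes and ketones, and 2 of their 11 genes rose and none fell. Both that rose had a mean of 50 or more, as did 6 of the 11, against 4.74% higher and 6.36% lower of all genes at that level in the authors' deposited table. Akr1c18, a hydroxysteroid dehydrogenase that inactivates progesterone, had the largest log2 fold change of the 94 genes, 1.22 (implied standard error 0.23, DESeq2 adjusted p = 3.40e-06). Its value was 189 in Cbx2-/- cells and 81.1 in wild-type cells in the authors' deposited table. Akr1b3, the mouse aldose reductase, rose modestly to 2642 in Cbx2-/- cells, against 2325 in wild-type cells (log2 fold change 0.18, implied standard error 0.063, DESeq2 adjusted p = 0.0472). That call was the weakest of the 8, and centring fold changes on the median of all genes ended it (adjusted p = 0.0535).

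None of their neighbours was called in the authors' deposited table. The Akr1c genes and Akr1e1 lie together on chromosome 13 from 4048991 to 4609164, and log2 fold changes there ran from -0.56 to 1.22 in the authors' deposited table. Akr1c14, a hydroxysteroid dehydrogenase next to Akr1c18, had 17 and 13 reads in the Cbx2-/- libraries, against 21 and 26 in the wild-type libraries. The libraries did not overlap, but the difference did not pass limma on recovered reads (log2 fold change -0.72, adjusted p = 0.189). Akr1b7, a chromosome 6 member, had 0 and 0 reads in Cbx2-/- and 1 and 1 in wild type. Akr1c13 had 15 and 19 reads in Cbx2-/- and 15 and 17 in wild type, which overlapped. In the Akr1b cluster on chromosome 6, Akr1b8 had 2117 in Cbx2-/- and 1966 in wild-type cells and Akr1b10 had 382 in Cbx2-/- and 384 in wild-type cells, and neither passed. Akr1a1 had 9167 in Cbx2-/- and 8923 in wild-type cells (log2 fold change 0.039, 95% interval -0.043 to 0.12, DESeq2 adjusted p = 0.919). Akr1e1, which reduces anhydrofructose, had 201 in Cbx2-/- and 271 in wild-type cells (log2 fold change -0.43, DESeq2 adjusted p = 0.128).

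Aldehyde dehydrogenases oxidise aldehydes to acids, and 1 of their 16 genes passed (6.25% higher, against 3.48% of all genes). Aldh4a1, the mitochondrial enzyme of proline breakdown, rose to 1054 in Cbx2-/- cells, against 844 in wild-type cells (log2 fold change 0.32, implied standard error 0.090, DESeq2 adjusted p = 0.00703). Aldh1l2, a mitochondrial formyltetrahydrofolate dehydrogenase, had the highest value of the 16, 1516 in Cbx2-/- and 1729 in wild-type cells (log2 fold change -0.19, 95% interval -0.34 to -0.043, DESeq2 adjusted p = 0.117). Per kilobase it had 251 in Cbx2-/- and 287 in wild-type cells, below Aldh7a1 with 421 in Cbx2-/- and 374 in wild-type cells. The cytosolic paralog of Aldh1l2, Aldh1l1, had 50 and 58 reads in Cbx2-/- and 52 and 36 in wild type, which overlapped. Aldh7a1, of lysine breakdown, had 1279 in Cbx2-/- and 1136 in wild-type cells (adjusted p = 0.275), and Aldh3a2, the fatty aldehyde dehydrogenase, 1110 in Cbx2-/- and 1041 in wild-type cells (adjusted p = 0.860), by the authors' DESeq2 comparison.

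Of the retinal dehydrogenases, Aldh1a3 had 191 in Cbx2-/- and 157 in wild-type cells (log2 fold change 0.28, 95% interval -0.11 to 0.68) in the authors' deposited table. Aldh1a1 had 16 and 12 reads in the Cbx2-/- libraries, against 9 and 12 in the wild-type libraries. Its near copy Aldh1a7 had 4 and 4 reads in Cbx2-/- and 7 and 3 in wild type. Libraries of both genotypes overlapped in Aldh1a1 and in Aldh1a7, and reads per library were not recovered for Aldh1a3. Aldh3b1, Aldh5a1, which removes succinic semialdehyde, and Aldh6a1, of valine breakdown, were near 0 in log2 fold change, at -0.0013, -0.0025 and -0.055 in the authors' deposited table.

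P450 genes encode haem oxidases, and none of the 29 passed the authors' DESeq2 test, against 7.78% of all genes. Only 5 had a mean of 50 or more, where 11.1% of all genes were called, against 1.65% under 50. Cyp1a1 and Cyp1b1, which the rule left out, both rose and are given below. The unadjusted p was under 0.05 in 0 of the 29, against 2548 of all 17441 genes. Limma on recovered reads called 1 of the 7 at a level it tested, Cyp4f13, against 12.4% of 2458 genes. Cyp4f16, a fatty acid hydroxylase, had 585 in Cbx2-/- and 531 in wild-type cells (log2 fold change 0.14, 95% interval -0.085 to 0.36). Cyp2j6, an epoxygenase-group enzyme, had 345 in Cbx2-/- and 362 in wild-type cells (log2 fold change -0.066, 95% interval -0.34 to 0.21). Cyp4v3, a fatty acid hydroxylase, had 202 in Cbx2-/- and 176 in wild-type cells (log2 fold change 0.19, 95% interval -0.19 to 0.58), all in the authors' deposited table. These intervals all include 0.

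Cyp4f13, named after its values were seen, had the most negative log2 fold change of the 94 genes, -0.70 in the authors' deposited table (DESeq2 adjusted p = 0.400). It had 30 and 26 reads in the Cbx2-/- libraries, against 53 and 40 in the wild-type libraries, which did not overlap. By limma on recovered reads its log2 fold change was -0.80 (standard error 0.24, adjusted p = 0.0359). Its neighbour Cyp4f37 had 4 and 9 reads in Cbx2-/- and 15 and 9 in wild type (limma adjusted p = 0.247), while Cyp4f17 in the same chromosome 17 cluster had 139 in Cbx2-/- and 150 in wild-type cells. Cyp2d22 had 51 and 31 reads in Cbx2-/- and 56 and 39 in wild type, which overlapped.

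Of the 29 P450 genes 17 had a mean under 5, among them Cyp2e1 and Cyp4a10. Cyp2e1, the ethanol-oxidising enzyme, had 2 and 5 reads in Cbx2-/- and 1 and 1 in wild type, a ratio of 3.29 with a 95% exact counting interval of 0.627 to 32.5. Cyp4a10, a fatty acid hydroxylase of liver, had 4 and 2 reads in Cbx2-/- and 0 and 0 in wild type. That is 1.88-fold of an assumed floor of 3 reads over the wild-type libraries. The lower limit of its 95% exact counting interval was 1.11, and the DESeq2 adjusted p was 0.650. Cyp4b1 had 2 and 0 reads in Cbx2-/- and 2 and 4 in wild type, a ratio of 0.309 with an interval of 0.031 to 1.75. Cyp2d12 had 1 and 2 reads in Cbx2-/- and 0 and 0 in wild type, Cyp2d26 had 1 and 1 in Cbx2-/- and 0 and 0 in wild type, and Cyp2j13 had 0 and 0 in Cbx2-/- and 1 and 1 in wild type, too few for a fold. Cyp3a13 had 5 and 5 reads in Cbx2-/- and 1 and 6 in wild type. Cyp2r1, the vitamin D hydroxylase, had 13 and 11 reads in Cbx2-/- and 10 and 5 in wild type, with a limma adjusted p of 0.443.

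Glucuronosyltransferases and sulfotransferases, which attach sugar acid and sulfate, had no gene past the DESeq2 threshold, against 7.78% of all genes. Sult4a1, the single one of their 14 genes at a level tested by limma, was not called there, and 1 of the 14, Ugt1a7c, had an unadjusted DESeq2 p under 0.05. The 5 Ugt1a genes share their last exons on chromosome 1, so reads could be divided between them. Ugt1a7c had 813 in Cbx2-/- and 689 in wild-type cells (log2 fold change 0.24, 95% interval 0.030 to 0.45, DESeq2 adjusted p = 0.211). Ugt1a6a had 252 in Cbx2-/- and 253 in wild-type cells, Ugt1a6b had 84.9 in Cbx2-/- and 104 in wild-type cells, and the 5 genes summed to 1156 in Cbx2-/- and 1050 in wild-type cells. Sult4a1, a brain-type sulfotransferase, had 30 and 36 reads in Cbx2-/- and 44 and 32 in wild type, which overlapped. Sult6b1 had 5 and 3 reads in Cbx2-/- and 0 and 1 in wild type, a ratio of 7.25 with an exact counting interval of 1.01 to 334, and Sult2b1, the cholesterol sulfotransferase, 3 and 2 in Cbx2-/- and 2 and 1 in wild type. Ugt3a2 had 0 and 1 reads in Cbx2-/- and 1 and 1 in wild type, a ratio of 0.470 with an interval of 0.00797 to 9.03.

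Reads in each library were recovered for every one of the 56 genes whose mean was below 50. Of them, 33 had 10 or fewer reads over all 4 libraries and 9 had a single read. In the Cbx2-/- libraries 10 genes had no read, and in the wild-type libraries 7. The 56 genes together had 474 and 437 reads in the Cbx2-/- libraries and 428 and 344 in the wild-type libraries. Among the 18 with a mean of 5 or more, Cbx2-/- libraries lay above both wild-type libraries in 6 and below both in 3, against 34.1% and 20.1% of the 2458 genes at that level. Over all 56, the counts were 11 above and 7 below, against 22.1% and 16.3% of 6126 genes. By limma on those 2458 genes 2 of the 18 rose (Gsta1 and Gstp2) and 1 fell (Cyp4f13), against 8.42% and 4.03% of all genes tested there (12.4% in either direction). These shares lie near the background. Gstp2 and Cyp4f13 were not called with any 1 of the 4 libraries left out.

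**Figure D4:**
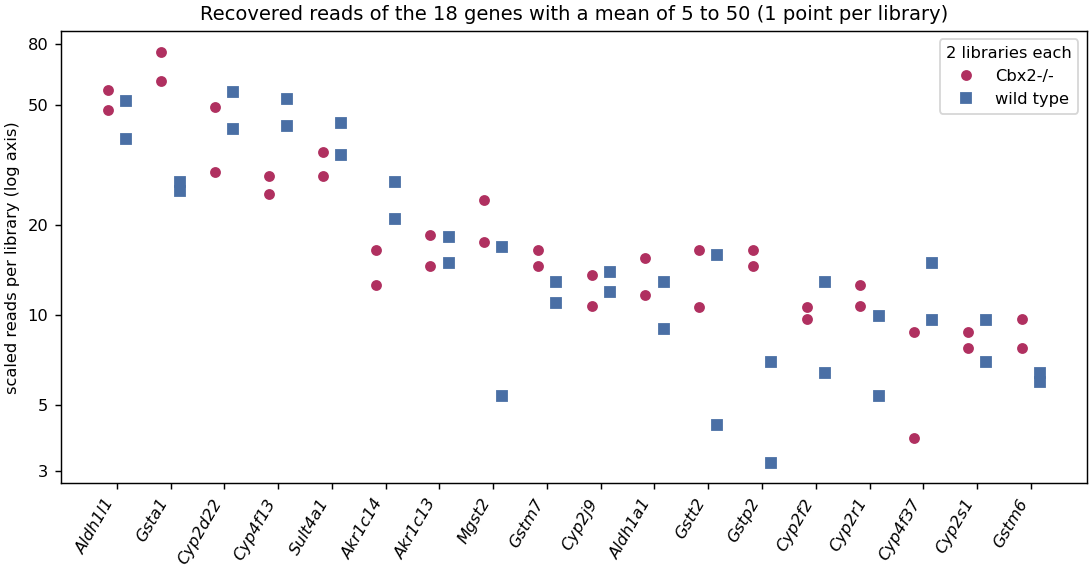
Scaled reads per library (log axis) of the 18 genes with a mean of 5 to 50, ordered by mean; circles are the 2 Cbx2-/- libraries and squares the 2 wild-type libraries. Both Cbx2-/- libraries lie above both wild-type libraries in 6 genes, among them Gsta1 and Gstp2, and below both in 3, among them Cyp4f13. Of the 2458 genes at that level, 34.1% were apart upward and 20.1% downward. The groups overlap in genes such as Aldh1l1, Sult4a1 and Cyp2s1.

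The 94 genes were spread over 16 chromosomes, with 52 of them in 11 clusters of 3 or more neighbours (gaps up to 500 kb, RefSeq positions in GRCm38.p6). The alpha-class cluster on chromosome 9 from 78191966 to 78347192 held Gsta4, Gsta1 and Gsta2, of which Gsta4 and Gsta1 rose. The other clusters had at most 1 call each. Of the 8 genes called, 5 lay in clusters.

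Genes that serve the same pathways were taken from 7 lists and comprised 103 genes besides the 94. Of these, 10 rose and 7 fell in the authors' deposited table (9.71% and 6.8%, against 3.48% and 4.3% of all genes). All of these calls were among the 71 with a mean of 50 or more. Of the 71, 14.1% were higher and 9.86% lower, against 4.74% and 6.36% of all genes at that level. The median log2 fold change of the 103 was 0.058. The list of glutathione supply held 13 genes, among them some that use glutathione (Glo1, Glrx, Gpx1 and Gpx4) or break it down (such as Chac1). Of the 13, 4 rose, none fell and 9 were not called. The 4 were among 10 genes with a mean of 50 or more, where 4.74% of all genes were higher and 6.36% lower. The 13 had a median log2 fold change of 0.18 and a summed signal of 21247 in Cbx2-/- and 18214 in wild-type cells. Slc7a11, the cystine importer, had 740 in Cbx2-/- and 357 in wild-type cells (log2 fold change 1.05, DESeq2 adjusted p = 1.57e-16). Glrx, a glutaredoxin, had 1194 in Cbx2-/- and 718 in wild-type cells (log2 fold change 0.73), and Glo1, the glyoxalase that uses glutathione to clear methylglyoxal, 4825 in Cbx2-/- and 3786 in wild-type cells (log2 fold change 0.35). Gclc, the catalytic subunit of the first step of glutathione synthesis, rose by 0.37 on the log2 scale, while its partner Gclm had a log2 fold change of 0.21 that did not pass.

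Partners of the P450s went both ways. Of 10 genes of electron supply and haem, all with a mean of 50 or more, 3 rose and 1 fell. At that level 4.74% of all genes were higher and 6.36% lower. Hmox1, haem oxygenase, had 3169 in Cbx2-/- and 2482 in wild-type cells (log2 fold change 0.35), Alas1, the first enzyme of haem synthesis, 1044 in Cbx2-/- and 788 in wild-type cells (0.41), and Cyb5b, a cytochrome b5, 3185 in Cbx2-/- and 2647 in wild-type cells (0.27) in the authors' deposited table. Por, the reductase that feeds electrons to microsomal P450s, fell to 3501 in Cbx2-/- cells, against 4017 in wild-type cells (log2 fold change -0.20, DESeq2 adjusted p = 0.00537).

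Among 23 other oxidising, reducing and hydrolysing enzymes 1 rose and 1 fell (4.35% each way, near the 3.48% higher and 4.3% lower of all genes). Nqo1, a quinone reductase, had 2264 in Cbx2-/- and 1592 in wild-type cells (log2 fold change 0.51, DESeq2 adjusted p = 2.33e-11), and Dhrs3, which reduces retinal, had 344 in Cbx2-/- and 455 in wild-type cells (log2 fold change -0.40). Of 17 regulators in the table, Nfe2l2 rose (log2 fold change 0.27) and Bach1, a repressor at antioxidant elements, fell (-0.31) in the authors' deposited table, while Ahr had 751 in Cbx2-/- and 645 in wild-type cells and did not pass. The liver regulators Hnf4a, Nr1i2 and Nr1i3 had values near 1 or less in both genotypes. Of 12 other transferases and cosubstrate genes 1 fell, As3mt, the arsenite methyltransferase (log2 fold change -0.83), and of 8 efflux carriers 1 fell, Abcc1, the exporter of glutathione conjugates (-0.15), in the authors' deposited table. Of 20 relatives of the families outside the symbol pattern 1 rose, Ptges (log2 fold change 0.20), and 2 fell, the sterol enzymes Cyp51 (-0.57) and Cyp7b1 (-0.66), in the authors' deposited table. Among the falls, those of Bach1, Dhrs3, Abcc1 and Cyp7b1 did not pass with the columns rescaled to equal totals.

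**Figure D5:**
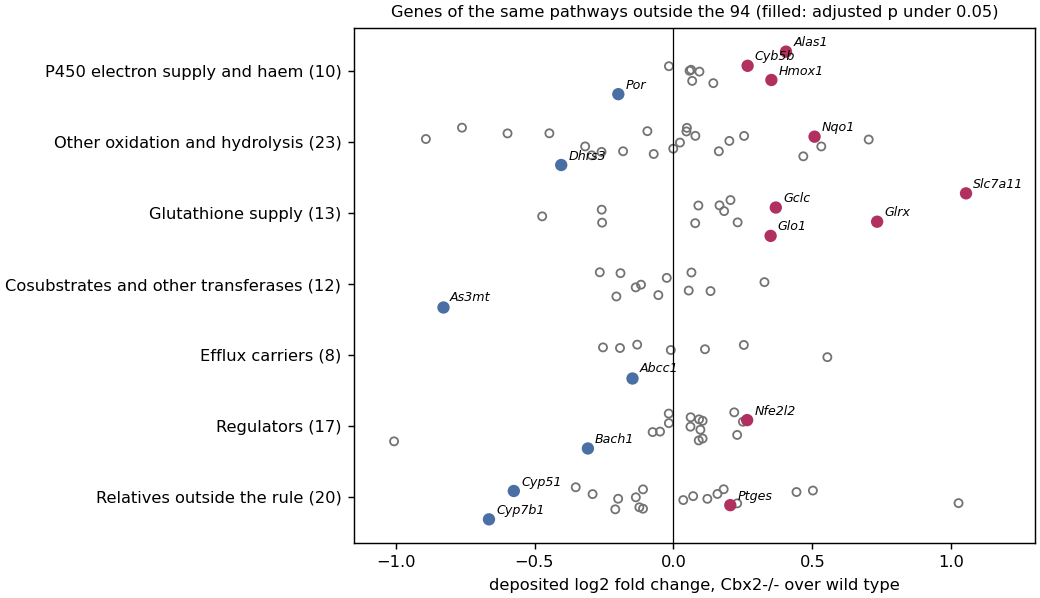
Deposited log2 fold change of Cbx2-/- over wild type for the 103 pathway genes outside the 94, 1 row per list with its number of genes (vertical spread is for legibility); filled points passed an adjusted p of 0.05, red for higher and blue for lower in Cbx2-/-. The row named glutathione supply, which also holds genes that use or break down glutathione, has 4 filled points to the right of 0. It has none to the left, and Slc7a11 is farthest at 1.05.

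Of the 4 genes that the rule left out, 3 rose. Of all genes 3.48% were higher, 4.74% at a mean of 50 or more and 1.16% under 50. Cyp1a1, the P450 best known as a target of the aryl hydrocarbon receptor, had 29 and 32 reads in the Cbx2-/- libraries, against 6 and 6 in the wild-type libraries (deposited log2 fold change 1.61, DESeq2 adjusted p = 0.0153). Aldh3a1 had 12 and 21 reads in Cbx2-/- and 0 and 1 in wild type (DESeq2 adjusted p = 0.00655), Cyp1b1 had 4152 in Cbx2-/- and 3286 in wild-type cells (log2 fold change 0.34), and Aldh1a2, which makes retinoic acid, did not pass with 139.5 in Cbx2-/- and 120.1 in wild-type cells in the authors' deposited table.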

How the data were processed

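Of 2 Cbx2-/- and 2 wild-type fibroblast RNA-seq libraries, 1 table was analysed. Its signal columns, deposited by the authors, give a normalised value for each genotype, and the ratio of these values matches the log2 fold change deposited by the authors to within 9.13e-09. That fold change is smaller than the ratio of reads where reads are few. The authors' p-values come from DESeq2, and recomputing the Benjamini-Hochberg adjustment over 17441 genes gave the authors' adjusted p-values to within 1.33e-06. Values per kilobase use the table's length column, per the file headers. HISAT2, Bowtie2, RSEM, DESeq2 and build mm10 are named, per the submitters' processing notes, without roles or versions.

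The authors' test was used, and genes were called at an adjusted p under 0.05. Standard errors were implied from fold change and p, and 95% intervals take 1.96 of them. The median implied error over genes with means of 10 to 100 was 0.39.

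Reads per library were recovered from the mean of both genotype values, in which 1 read has a fixed size in each library (size factors 1.03 and 1.03 in Cbx2-/-, 1.01 and 0.935 in wild type). All 6126 genes with a mean under 50 had exactly 1 solution within 2.4e-08 on 4 times the mean. Deliberately shifted values found a solution in 0% of cases below a mean of 15, 0.333% from 15 to 30 and 4.33% from 30 to 50. Which replicate each recovered library is remains unknown. Scaled reads plus a pseudocount of 0.5 were tested with limma 3.58.1 (R 4.3.3, mean trend) over the 2458 genes with a mean of 5 or more. On simulated reads of these 2458 genes for Cbx2-/- versus wild type, limma called 32 of 100 genes changed 2-fold. It called 84 of 100 changed 4-fold, counted in either direction, and 2 of 2258 unchanged genes. The simulated spread between libraries was fixed in advance and not estimated from these libraries. Intervals from reads cover counting error only.

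Positions came from RefSeq (GRCm38.p6) for all 94 genes, 93 under the same symbol. Genes named were Cbx2, those called or next to the threshold, the 3 highest of each family, those with reads that did not overlap and differed 2-fold, up to 3 called genes per pathway list and the 4 left out; others were named after their values were seen. The genes and lists were chosen with earlier results of these data known. Alternatives were other thresholds, filters, scalings, raised errors, and for limma another pseudocount, all recovered genes and each library left out.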

Additional observations from a re-analysis of the deposited data

How the results depend on the processing

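Rises among the 94 genes numbered 7 and falls 1. Rises were 4 at an adjusted p of 0.01, 2 at an absolute log2 fold change of 1 and 3 with the implied standard error raised by 20%. Falls were 0 in those 3 settings, 0 with the error raised by 10% and 0 with equal column totals, and 3 at an unadjusted p. In the other settings tried on the deposited test rises numbered 5 to 10, and the fall stayed 1 in the settings not named. Pathway genes, 10 higher and 7 lower, became 1 and 0 at an absolute log2 fold change of 1 and 21 and 13 at an unadjusted p. Their falls were 2 at an adjusted p of 0.01, 3 with equal column totals, and 2 with the error raised by 10% or by 20%.

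By limma on recovered reads, 2 of the 18 genes tested rose and 1 fell. These became 0 and 0 when all 6126 genes with recovered reads were fitted together. Leaving out 1 library gave 0 to 1 rises and 0 to 0 falls. No called fold change changed sign in the settings run on it. Of the uncalled genes followed one by one, Ugt1a6a did, at -0.0041 as reported and 0.035 with equal column totals.

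Equal column totals shift all log2 fold changes by 0.039, which turns the sign of 11 of the 94 genes, none with an absolute log2 fold change above 0.032, and centring on the median moves them by 0.0036 and turns none. Raising the error by 10% ended the calls of Akr1b3, Gsta4 and Mgst1, and by 20% also those of Gsta1 and Aldh4a1. No paired analysis was possible because the deposited columns carry no replicate numbers. Above a mean of 50 no library could be left out, since reads per library were not recovered there. At low levels many modest differences could be missed, since limma called 32 of 100 simulated 2-fold changes between Cbx2-/- and wild type over 2458 genes. The simulated spread was not estimated from these libraries, so the share missed here is unknown.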
